A study of Mus musculus with 15 samples.

Results

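Gastric endoderm transcription factors were followed through mouse stomach development as a set of 9 genes, chosen by symbol as Sox2, Sox21, Gata4, Gata6, Foxa1, Foxa2, Foxa3, Klf5 and Elf3. All 9 were found among the 44788 gene symbols of the expression tables, each as 1 entry, and all 9 were among the 16902 symbols tested, those with a maximal FPKM of at least 1. FPKM is a level that counts sequenced fragments relative to transcript length and sequencing depth. RNA was sequenced from whole stomachs of C57BL/6 mice at 15 timepoints, with 1 transcriptome per timepoint, and the labels name no genetic change or treatment. The embryonic group held each day from E12.5 to E18.5 (n = 7), the group D1 to W2 held D1, D3 and D5, days after birth, with W1 and W2, weeks after birth (n = 5), and the group W3 to W8 held W3, W6 and W8, at and after the usual age of weaning (n = 3). According to the study's methods, several embryonic stomachs were pooled in the earlier samples and the stomachs from W3 on were male, so age, pooling and sex cannot be told apart for those samples. The timepoints of a group served as its replicates, and the spread within a group therefore includes change with age.

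The stomach forms from foregut endoderm, the inner layer of the embryonic gut tube, which gives rise to the epithelium, while the surrounding mesoderm gives rise to muscle and connective tissue. In the mouse it has a forestomach lined with stratified squamous epithelium and a glandular hindstomach that makes mucus, acid and digestive enzymes. SOX2 marks anterior gut endoderm and is needed for foregut identity, GATA4 is expressed in the glandular but not the squamous region, and FOXA proteins are forkhead factors that open chromatin at endodermal genes. KLF5 is a zinc-finger factor of proliferating epithelial cells, and ELF3 is an ETS factor restricted to epithelia.

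The promoters of Sox2, Foxa1, Foxa3 and Elf3 are shown because these genes span the courses described later: Sox2 had its highest values before birth and its lowest from W3 on, Foxa3 and Elf3 had their lowest at E12.5 and their highest from W3 on, and Foxa1 had the narrowest relative range of the 9. Each line holds the 250 bases before a start listed in the RefSeq promoter table. For Foxa1 and Elf3 this start lies within the gene entry and not at its 5′ end. Bases are read 5′ to 3′ on the strand of the gene, in the build GRCm38.p6. Capitals mark matches, on either strand, to short sequences that factors of the members' families are known to bind. For GATA factors these were AGATAA and the form TGATAA. For forkhead factors, the family of FOXA, they were TGTTTAC and the form TGTTTGC. For SOX factors they were ACAAAG and the form ACAATG. For KLF factors the letters were CCCACCC, and for ETS factors, the family of ELF3, they were AGGAAG.
Sox2, chr3:34649745-34649994, plus strand: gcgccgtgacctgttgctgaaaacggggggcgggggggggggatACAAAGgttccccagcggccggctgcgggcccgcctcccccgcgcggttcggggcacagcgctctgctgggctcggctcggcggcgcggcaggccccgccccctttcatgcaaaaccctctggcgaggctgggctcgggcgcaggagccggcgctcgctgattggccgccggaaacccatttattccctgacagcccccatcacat
Foxa1, chr12:57546112-57546361, minus strand: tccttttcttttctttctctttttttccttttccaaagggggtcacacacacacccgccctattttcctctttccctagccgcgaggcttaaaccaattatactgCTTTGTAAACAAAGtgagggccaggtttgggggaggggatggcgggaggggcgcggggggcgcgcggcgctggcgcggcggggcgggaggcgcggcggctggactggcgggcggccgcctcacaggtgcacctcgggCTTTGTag
Foxa3, chr7:19023540-19023789, minus strand: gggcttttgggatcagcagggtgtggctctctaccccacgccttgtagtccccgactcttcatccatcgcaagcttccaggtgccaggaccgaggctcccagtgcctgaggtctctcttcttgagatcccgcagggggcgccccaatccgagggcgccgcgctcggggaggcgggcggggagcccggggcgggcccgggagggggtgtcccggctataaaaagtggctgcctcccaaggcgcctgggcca
Elf3, chr1:135258473-135258722, minus strand: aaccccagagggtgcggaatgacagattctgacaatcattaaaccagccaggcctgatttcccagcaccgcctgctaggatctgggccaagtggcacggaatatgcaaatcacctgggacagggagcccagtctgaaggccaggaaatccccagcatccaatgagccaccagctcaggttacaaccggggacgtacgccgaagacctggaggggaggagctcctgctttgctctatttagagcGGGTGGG

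The Sox2 window held 1 SOX match, which began 206 bases before the start, and the Elf3 window held 1 KLF match, which began 7 bases before it. In the Foxa1 window 1 forkhead match, which began 141 bases before the start, overlapped 2 of the 3 SOX matches, and the Foxa3 window held no match to any of the letters searched. Promoters on chromosome 18, where Gata6 lies, were left out for the members but not for the RefSeq promoters at large. None was listed for Gata4 and Klf5. This gave 8 promoters for 6 of the 9 members (Sox2, Sox21, Foxa1, Foxa2, Foxa3 and Elf3). GATA letters stood in 1 of these 8 and in 16.6% of 32817 promoters of the table, and forkhead letters stood in 1 of 8 and in 7.29%. SOX letters stood in 3 of 8 and in 25.2% of all promoters, KLF letters in 3 of 8 and in 15.8%, and ETS letters in 1 of 8 and in 29.5%. Several of the 8 promoters were alternative starts of Foxa2. These held the only GATA and ETS matches and all KLF matches but that of Elf3. The matches describe letters only, and no test was made of the counts.

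All 9 members were measured above 2 FPKM in all 15 libraries, from 2.56 FPKM (Foxa3 at E12.5) to 219.8 FPKM (Elf3 at W6). On this length-corrected scale Sox2 was the highest of the 9 at E12.5 and E13.5, Klf5 at E14.5, E15.5, E16.5 and D1, and Elf3 in the other 9 libraries. Sox2 was the lowest of the 9 from W2 to W8, the place held by Foxa3 until E15.5. The members therefore changed order during development: Sox2 went from first to ninth place, and Elf3 from sixth place at E12.5 to first.

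**Figure D1:**
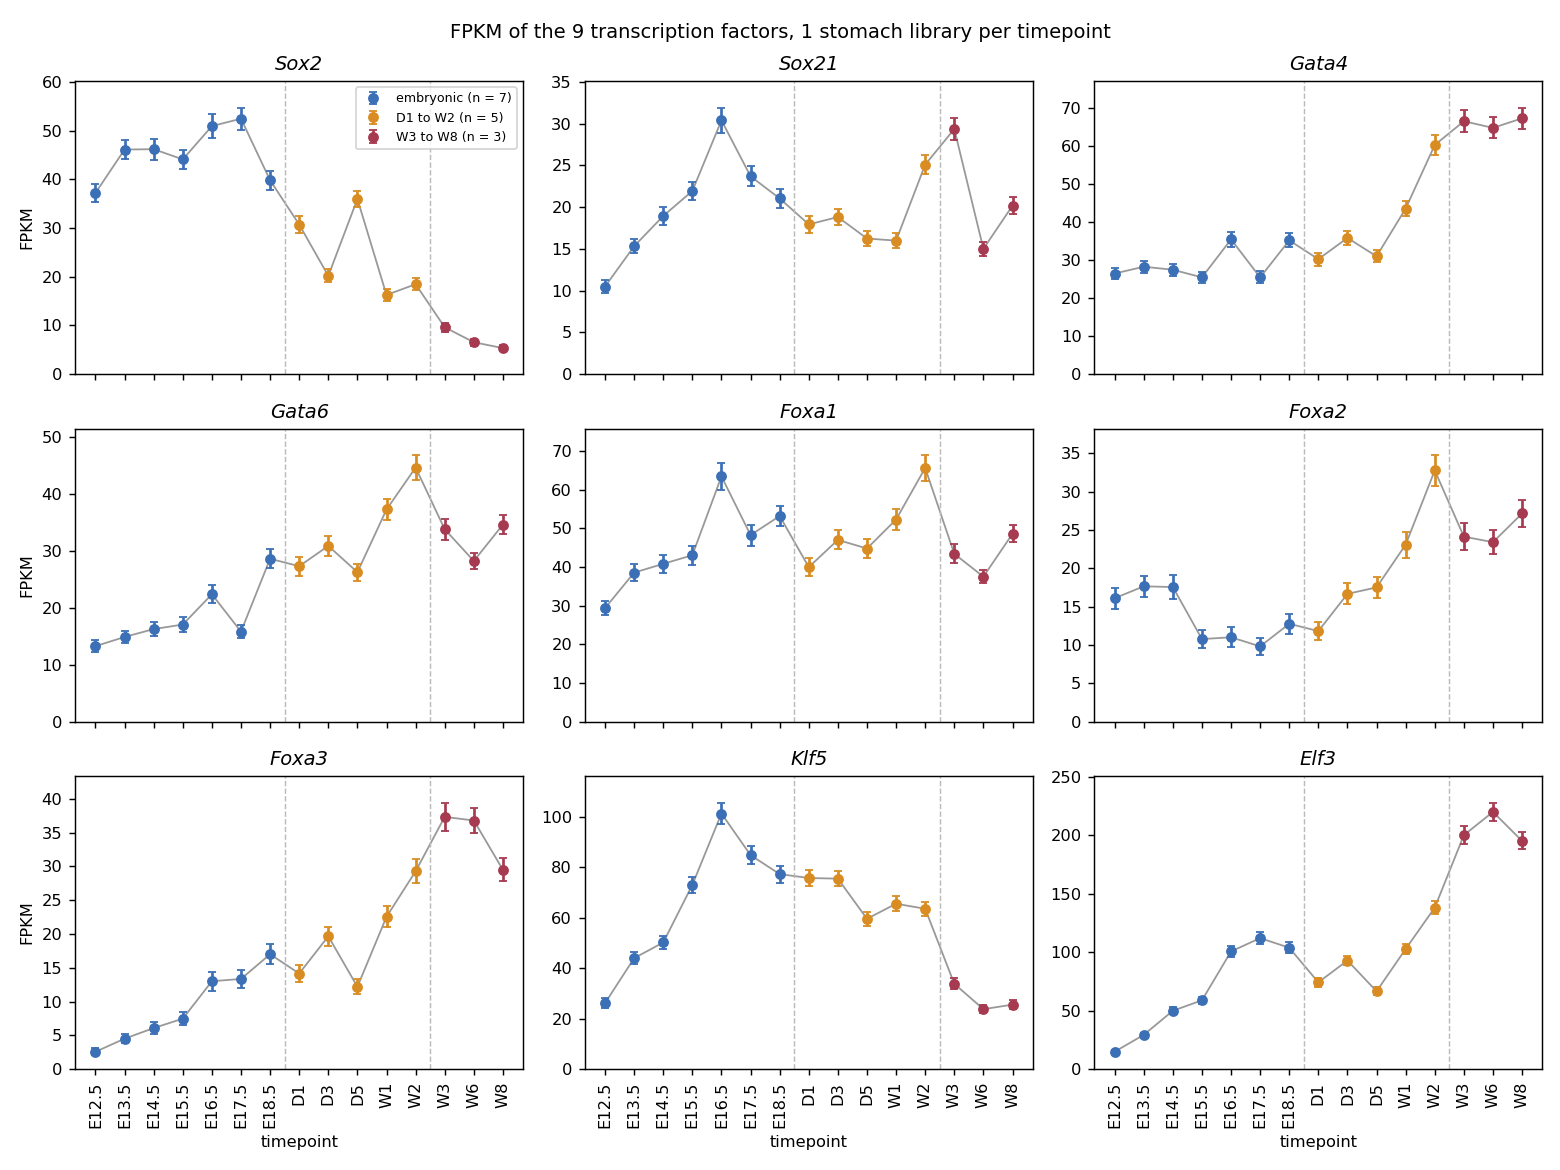
FPKM (vertical axes, linear from 0) of the 9 members at each of the 15 timepoints (horizontal axes), where each point is 1 stomach library and each bar spans the lower and upper bound given in the deposited tables. Sox2 ends at 5.34 FPKM at W8 after a highest value of 52.5 at E17.5, while Gata4, Foxa3 and Elf3 lie higher from W3 to W8 than at any earlier timepoint.

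If the deposited bounds are read as a Poisson interval of 2 SD on each side, the members' values rested on 96 fragments (Foxa3 at E12.5) to 3065 fragments (Elf3), and the bounds lay 3.61% to 20.4% from the value. The bounds cover counting error only, and not the difference between animals. The epithelial genes Epcam and Cdh1 were expressed throughout, and the glandular markers (9 genes, among them Tff1, Gkn1 and Gkn2, which encode secreted mucosal proteins) summed to 258 FPKM at E12.5 and 192692 FPKM at W6. The 8 squamous forestomach markers (keratins, desmosomal cadherins and Trp63) summed to 9948 FPKM at E17.5, 516 FPKM at W6 and 12.4 FPKM at W8, where Krt13 was at 5.96 FPKM against 273 at W6 and Trp63 was at 0.0511 FPKM. The 6 liver markers summed to 1084 FPKM at D1 (Alb 461 FPKM, Ahsg 242 FPKM), to 126 FPKM at W3 and to 5.24 to 83.1 FPKM elsewhere. D1 and W8 therefore stood apart, and results that rest on them are also given without them. In whole stomachs, fewer cells of a type and less RNA per cell cannot be told apart.

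**Figure D2:**
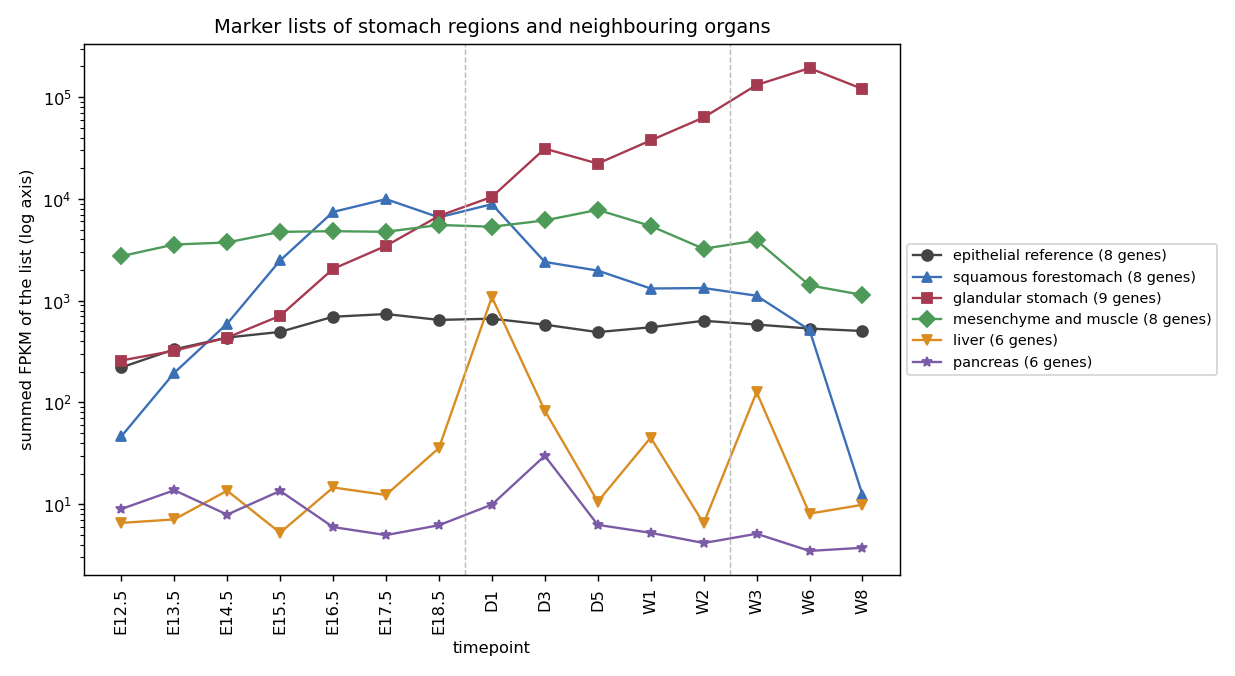
Summed FPKM (vertical axis, logarithmic) of 6 marker lists at the 15 timepoints (horizontal axis), with dashed lines between the 3 age groups. The glandular list reaches 192692 at W6, the squamous list has its highest value of 9948 at E17.5 and 12.4 at W8, and the liver list stands at 1084 at D1.

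Across the 3 age groups, 6 of the 9 members differed (moderated F test of limma on log2(FPKM + 1), Benjamini-Hochberg adjusted p under 0.01 over all genes), namely Sox2, Gata4, Gata6, Foxa3, Klf5 and Elf3. Without D1 and W8 the 4 members Sox2, Gata4, Gata6 and Foxa3 differed. Among all tested genes 67.9% differed, so the share of members was near that of genes at large. In D1 to W2 against the embryonic group Gata6 was the 1 member that rose, where 10.8% of all genes rose, and Sox2 was the 1 member that fell, where 30.6% fell. In W3 to W8 against D1 to W2 Gata4 was the 1 member that rose (2.57% of all genes) and Sox2 and Klf5 were the 2 that fell (28.9% of all genes). Along the 7 embryonic days Foxa3, Klf5 and Elf3 rose, 3 of 9 against 14.3% of all genes, and no member fell, against 25.0% of all genes. The median difference of the 9 members was 0.42 log2 in D1 to W2 against the embryonic group, where that of all genes was −0.22, and 0.15 in W3 to W8 against D1 to W2, where that of all genes was −0.42. The median slope was 0.13 log2 per day for the members and −0.03 for all genes.

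The 10 highest genes held 11.2% of the FPKM sum at E14.5 and 53.2% at W6, and their part in the shift of all genes was not tested. After scaling by the median ratio of all genes the median differences were near 0, and the counts of genes that rose and fell became 2875 and 2535 for D1 to W2 (1820 and 5170 as deposited) and 2112 and 1305 for W3 to W8 (435 and 4877 as deposited). Under this scaling Gata4, Gata6 and Foxa3 rose and Sox2 fell in D1 to W2, and Gata4 rose and Sox2 fell in W3 to W8. Thus 4 and 2 members passed the test. Along the embryonic days 4 members rose (Foxa1, Foxa3, Klf5 and Elf3) and none fell, where 3065 of the 16902 genes rose and 3049 fell. A second scaling, on 8 genes of epithelial cells in general, gave the members relative to those genes. On that scale 4 members (Sox2, Foxa3, Klf5 and Elf3) passed the F test across the 3 age groups, as did 3053 of the 16902 genes. No member passed the test in either comparison of successive groups. Along the embryonic days Foxa3 and Elf3 rose and Sox2, Sox21, Gata4, Foxa1 and Foxa2 fell. There 664 of the 16902 genes rose and 11796 fell, with a median slope of −0.28 log2 per day, so the falls of members on this scale are to be read against that shift.

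**Figure D3:**
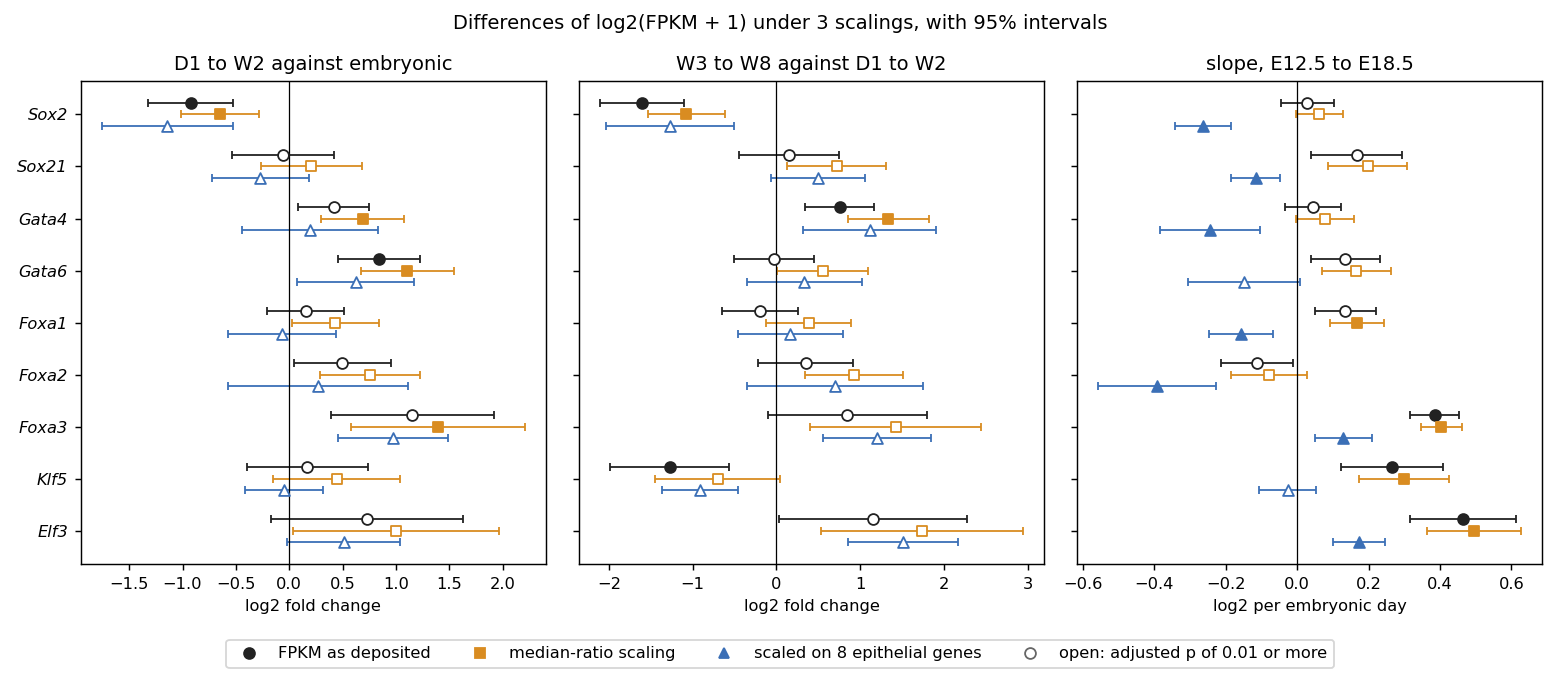
Differences of log2(FPKM + 1) for the 9 members between age groups (left and middle panels, log2 fold change) and slopes along the embryonic days (right panel, log2 per day) under 3 scalings, where bars are 95% intervals and filled symbols have an adjusted p under 0.01. Sox2 lies left of 0 in both group comparisons under all 3 scalings, and in the right panel the epithelial scaling puts 7 of the 9 members left of 0.

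Sox2 (gene6180 in the tables, chr3:34650005-34652461, plus strand), the high-mobility-group factor of foregut endoderm, read 37.2, 46.1, 46.2, 44.1, 50.9, 52.5 and 39.8 FPKM from E12.5 to E18.5. It read 30.7, 20.2, 35.97, 16.3 and 18.46 FPKM at D1, D3, D5, W1 and W2, and 9.62, 6.55 and 5.34 FPKM at W3, W6 and W8. As deposited the 3 groups did not overlap: every value after birth was lower than every embryonic value, and every value from W3 on was lower than all before. With median-ratio scaling the values of D1 and D5 (30.2 and 33.8) exceeded that of E12.5 (29.4). With epithelial scaling that of D5 (35.2) exceeded those of E16.5, E17.5 and E18.5 (33.8, 33.4 and 29.5). Within D1 to W2 the values were not ordered by age, since D5 was the highest and W1 the lowest. Sox2 fell by 0.92 log2 (SE 0.19, adjusted p 0.0012) from the embryonic group to D1 to W2 and fell by 1.60 log2 (SE 0.23, adjusted p 3.22e-04) from there to W3 to W8 (limma). With median-ratio scaling it fell by 0.65 and 1.07 log2 (adjusted p 0.0070 and 0.0020), and with epithelial scaling the differences were −1.14 and −1.27 log2 (adjusted p 0.015 and 0.056). Without D1 and W8 it fell by 1.02 and 1.34 log2 (adjusted p 0.0014 and 0.0050). The first step lost its call with the protein phases of the study as groups (−0.64 log2, adjusted p 0.037).

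The squamous markers also had low sums from W3 on (12.4 to 1118 FPKM against 1317 to 8873 in D1 to W2), and 1 of the 8, Krt15, fell in this comparison while 7 did not pass the test (median −3.08 log2). Their part in the course of Sox2 was not tested. In the embryonic days Sox2 had a slope of 0.03 log2 per day (95% interval −0.05 to 0.10, adjusted p 0.47), and −0.26 per day with epithelial scaling, on which the median slope of all genes was −0.28, so Sox2 lay 0.0159 above it. The gene lies within the longer noncoding gene Sox2ot, which was at 0.117 to 1.45 FPKM, and the strand of the libraries was not given in the sources used here.

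Sox21 (gene33925, chr14:118233233-118237030, minus strand), an intronless gene related to Sox2, did not follow it. Its values were 10.5, 15.3, 18.9, 21.9, 30.4, 23.7 and 21.03 FPKM from E12.5 to E18.5, then 17.9, 18.8, 16.2, 16.0 and 25.1 FPKM up to W2, and 29.4, 15.0 and 20.2 FPKM at W3, W6 and W8. All 3 groups overlapped, with high values at both E16.5 and W3. Its embryonic slope was 0.17 log2 per day (limma, 95% interval 0.04 to 0.29, adjusted p 0.034), which did not pass the test. The slope turned to −0.12 with epithelial scaling (adjusted p 0.0068), on which the median slope of all genes was −0.28. The difference in D1 to W2 was −0.06 log2 (95% interval −0.54 to 0.42, adjusted p 0.83), which turned to 0.21 with median-ratio scaling. That in W3 to W8 was 0.15 (95% interval −0.44 to 0.75, adjusted p 0.66), 0.72 with median-ratio scaling (95% interval 0.13 to 1.31, adjusted p 0.053) and 0.50 with epithelial scaling.

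Gata4 (gene33385, chr14:63198915-63245266, minus strand), a zinc-finger factor that marks columnar foregut epithelium, had nearly level values before birth. They were 26.4, 28.2, 27.4, 25.4, 35.4, 25.4 and 35.1 FPKM from E12.5 to E18.5, and its slope was 0.04 log2 per day (adjusted p 0.28), which turned to −0.24 with epithelial scaling (all genes −0.28). The values of D1, D3 and D5 (30.2, 35.8 and 30.9 FPKM) lay among or just above those of the embryonic group, while W1 and W2 reached 43.5 and 60.2 FPKM and W3, W6 and W8 reached 66.4, 64.7 and 67.2 FPKM. The last group lay above all earlier values and within 3 FPKM. Gata4 rose by 0.75 log2 (SE 0.19, adjusted p 0.0060) from D1 to W2 to W3 to W8, and 1.34 log2 with median-ratio scaling (adjusted p 7.74e-04). The call was lost with epithelial scaling (1.11 log2, adjusted p 0.11) and with W3 moved to the earlier group (0.62 log2, adjusted p 0.071). The difference between D1 to W2 and the embryonic group was 0.42 log2 (adjusted p 0.032), and it passed the test with median-ratio scaling (0.69 log2, adjusted p 0.0068). The rise to W3 to W8 lost its call when any of D1, D3, D5, W3, W6 or W8 was left out, with differences of 0.67 to 0.91 log2 and adjusted p up to 0.025 over all libraries left out in turn. Without D1 and W8 the difference was 0.65 log2 (adjusted p 0.039).

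Gata6 (gene38931), the related factor that is expressed widely in endoderm, read 13.3, 14.9, 16.3, 17.1, 22.4, 15.8 and 28.6 FPKM from E12.5 to E18.5, then 27.3, 30.9, 26.2, 37.3 and 44.6 FPKM from D1 to W2, and 33.8, 28.2 and 34.6 FPKM from W3 to W8. The highest embryonic value, that of E18.5, was above the values of D1 and D5, and the highest of all was that of W2. Gata6 rose by 0.84 log2 (SE 0.18, adjusted p 0.0015) in D1 to W2 against the embryonic group, which was 1.11 log2 with median-ratio scaling (adjusted p 9.02e-04) and 0.62 log2 with epithelial scaling (adjusted p 0.089). Without D1 and W8 it rose by 0.90 log2 (adjusted p 0.0032). The difference of W3 to W8 from D1 to W2 was −0.02 log2 (95% interval −0.50 to 0.45, adjusted p 0.94), and it turned to 0.55 with median-ratio and 0.33 with epithelial scaling. The entry of Gata6 overlaps that of 1010001N08Rik, which read 6.42 to 18.47 FPKM before birth, 21.5 to 44.5 FPKM in D1 to W2 and 27.1 to 51.2 FPKM in W3 to W8, so reads of the shared stretch may have been split between them.

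The 3 FOXA genes had different courses. Foxa1 (gene28691, chr12:57540628-57548029, minus strand) read 29.3, 38.5, 40.8, 43.0, 63.4, 48.2 and 53.1 FPKM from E12.5 to E18.5, 39.9, 47.0, 44.7, 52.2 and 65.6 FPKM from D1 to W2, and 43.4, 37.5 and 48.5 FPKM from W3 to W8. Its groups overlapped throughout, and its highest value was 2.23 times its lowest, the smallest such range among the 9. Its embryonic slope was 0.13 log2 per day (95% interval 0.05 to 0.22, adjusted p 0.017), and it passed the test with median-ratio scaling (0.17, adjusted p 0.0046). The differences were 0.15 log2 (95% interval −0.21 to 0.52, adjusted p 0.44) in D1 to W2, which turned to −0.07 with epithelial scaling, and −0.19 (−0.64 to 0.26, adjusted p 0.45) in W3 to W8, which turned to 0.39 with median-ratio scaling.

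Foxa2 (gene5035, chr2:148042877-148046969, minus strand), which acts early in endoderm and later in gut epithelium, had a dip before birth. It read 16.1, 17.6 and 17.55 FPKM at E12.5, E13.5 and E14.5, 10.8, 11.0, 9.81 and 12.8 FPKM from E15.5 to E18.5, 11.8, 16.7, 17.502, 23.1 and 32.8 FPKM from D1 to W2, and 24.1, 23.4 and 27.1 FPKM from W3 to W8. The embryonic slope of −0.11 log2 per day (SE 0.04, adjusted p 0.057) did not pass the test as deposited, and it was −0.39 with epithelial scaling (all genes −0.28). The difference of D1 to W2 from the embryonic group was 0.50 log2 (SE 0.21, adjusted p 0.056), and 0.76 log2 with median-ratio scaling (adjusted p 0.011), so it missed the threshold on both scales.

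Foxa3 (gene16044, chr7:19013283-19023539, minus strand) had the widest relative range of the FOXA genes, 14.6 times from lowest to highest. It read 2.56, 4.50, 6.07, 7.46, 13.0, 13.3 and 17.0 FPKM from E12.5 to E18.5, in the order of age. It read 14.1, 19.7, 12.2, 22.5 and 29.3 FPKM from D1 to W2 and 37.3, 36.8 and 29.5 FPKM from W3 to W8, and the last group lay above all earlier values, though W8 exceeded W2 by less than their bounds. Foxa3 rose by 0.38 log2 per embryonic day (SE 0.03, adjusted p 2.44e-04), by 0.40 with median-ratio scaling and by 0.13 with epithelial scaling (adjusted p 0.0075). The difference of D1 to W2 from the embryonic group was 1.15 log2 (SE 0.36, adjusted p 0.013), just outside the threshold, and 1.39 log2 with median-ratio scaling (adjusted p 0.0084). That of W3 to W8 from D1 to W2 was 0.85 log2 (SE 0.45, adjusted p 0.12).

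Klf5 (gene33774, chr14:99298691-99313412, plus strand) had its highest values in late gestation. It read 26.2, 44.0, 50.2, 73.0, 101, 84.8 and 77.3 FPKM from E12.5 to E18.5, 75.8, 75.5, 59.6, 65.6 and 63.6 FPKM from D1 to W2, and 33.8, 23.7 and 25.6 FPKM from W3 to W8. The last group lay below all values of D1 to W2, and E12.5 was the only earlier library among them. Klf5 rose by 0.27 log2 per embryonic day (SE 0.06, adjusted p 0.0086), by 0.30 with median-ratio scaling, while the slope turned to −0.03 (adjusted p 0.48) with epithelial scaling. The call was lost without any 1 of the 6 libraries from E12.5 to E17.5 (slopes of 0.19 to 0.35), with a pseudocount of 0.1 (adjusted p 0.011) and without an FPKM limit (adjusted p 0.026). It fell by 1.27 log2 (SE 0.33, adjusted p 0.0063) from D1 to W2 to W3 to W8. This fall was −0.70 log2 (adjusted p 0.13) with median-ratio scaling, −0.92 log2 (adjusted p 0.022) with epithelial scaling and −1.19 log2 (adjusted p 0.042) without D1 and W8. It also lost its call when any of D1, D3, D5, W1, W6 or W8 was left out (−1.42 to −1.18 log2 over all libraries left out in turn), so the direction was kept on each of these scales but the call was not. The low sums of the squamous markers and of the mesenchyme and muscle markers (1139 to 3906 FPKM in W3 to W8 against 3236 to 7804 FPKM in D1 to W2) stood beside it, and 5 of the 8 mesenchyme and muscle markers fell (Vim, Col1a1, Col3a1, Acta2 and Barx1). Their part was not tested.

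Elf3 (gene1586, chr1:135253574-135258565, minus strand) read 14.8, 29.2, 49.8, 58.7, 101, 112 and 104 FPKM from E12.5 to E18.5, 74.1, 92.8, 66.5, 103 and 138 FPKM from D1 to W2, and 199.9, 219.8 and 195 FPKM from W3 to W8. All 3 values of the last group lay above every earlier one, and D1, D3 and D5 lay below E16.5, E17.5 and E18.5. Elf3 rose by 0.46 log2 per embryonic day (SE 0.06, adjusted p 0.0011), by 0.49 with median-ratio scaling and by 0.17 with epithelial scaling (adjusted p 0.0012). Its difference across the 3 age groups passed the F test narrowly (adjusted p 0.0098). The single steps of 0.73 log2 (SE 0.42, adjusted p 0.15) to D1 to W2 and 1.15 log2 (SE 0.53, adjusted p 0.079) to W3 to W8 did not. With the protein phases of the study as groups, the first of these steps was 1.17 log2 and passed the test (adjusted p 0.0078).

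Ratios of members within a library do not depend on how the libraries were scaled, and they are given as a description. Sox2 stood at 1.13 to 2.06 times the FPKM of Gata4 in the 7 embryonic libraries, at 0.307 to 1.16 times in D1 to W2, and at 0.145, 0.101 and 0.0795 times at W3, W6 and W8. The ratio was 1.02 at D1 and 1.16 at D5 but 0.564 at D3, so Sox2 first stood below Gata4 at D3 and last stood above it at D5. Sox21 stood at 0.282 times Sox2 at E12.5, at 0.983 times at W1 and at 3.05, 2.29 and 3.78 times at W3, W6 and W8, all above the range of D1 to W2 (0.451 to 1.36). Gata6 came nearest to Gata4 at D1 (0.905 times) and stood at 0.436 to 0.515 times from W3 to W8, below all values of D1 to W2. Foxa1 stood at 5.76 times Foxa2 at E16.5 and at 1.60 to 1.80 times from W3 to W8. Foxa3 stood at 0.159 times Foxa2 at E12.5 and at 1.57 times at W6, with overlap between the groups. The ratio of Elf3 to Klf5, chosen after the values were seen, was 0.566 at E12.5, 2.17 at W2 and 5.91, 9.26 and 7.63 at W3, W6 and W8, and the groups W3 to W8 and D1 to W2 did not overlap.

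**Figure D4:**
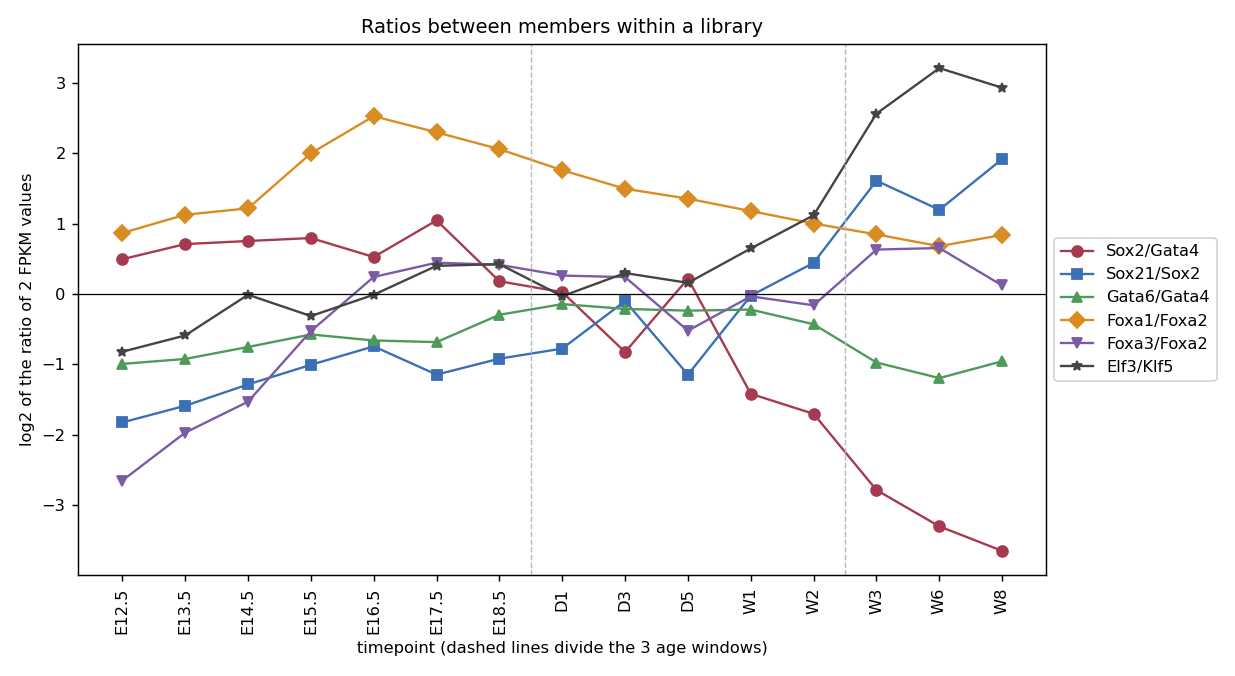
Log2 of the ratio of 2 members' FPKM (vertical axis, 0 means equal levels) in each library (horizontal axis), where each line is 1 pair and the dashed lines divide the 3 age groups. Sox2/Gata4 goes from 1.05 at E17.5 to −3.65 at W8, and Elf3/Klf5 and Sox21/Sox2 reach their highest values after W3.

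Over the 15 timepoints, which share the scale of each library and the order of age, Pearson's r of log2(FPKM + 1) was 0.96 between Foxa3 and Elf3, 0.88 between Foxa3 and Gata6 and 0.85 between Foxa3 and Gata4. Sox2 and Gata4 had an r of −0.91, and Sox2 had negative values with Gata6 (−0.68), Foxa2 (−0.76), Foxa3 (−0.76) and Elf3 (−0.67). Klf5 was nearest to Sox2 (0.64), and Sox21 was nearest to Foxa1 (0.74). With median-ratio scaling Foxa3 and Elf3 had an r of 0.98 and Sox2 and Gata4 one of −0.92, while Klf5 and Sox2 had one of 0.24. On that scale Klf5 was nearest to Foxa1 (0.42), and Sox21 was nearest to Elf3 (0.92, against 0.87 with Foxa1). Among 14618 genes with a mean FPKM of at least 1, those with a course most like Elf3 were Krt19 (r 0.99), St14 (0.99) and Tmem51 (0.98), and those most like Foxa3 were Krt8 (0.99), Cd82 (0.99) and Prr15l (0.99). KRT8 and KRT19 are keratins of simple epithelium and ST14 is a membrane protease of epithelia that is also 1 of the 8 genes of the epithelial scaling. Krt8 read 151 FPKM at E12.5 and 2034 FPKM at W6, and Krt19 read 112 and 2811 FPKM.

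The genes most like Sox2 were Pard6g (a cell polarity gene), Hoxc5 and Dusp7 (r 0.99, 0.98 and 0.98). Nrn1, Lasp1 and C2cd4a were most like Gata4 (0.98, 0.98 and 0.97), and Manba, Ampd3 and Zfp385b most like Gata6 (0.98, 0.97 and 0.96). For Klf5 they were Col6a4, Eef2k and Gpr35 (0.97, 0.97 and 0.97), of which Col6a4 was at 0.88 and in place 33 with median-ratio scaling. Foxa2 had lower values with its nearest genes Rnf130, Carhsp1 and Hs3st3b1 (0.94, 0.94 and 0.91), and Sox21 (Fosl2, Pdcd6ip and Gbe1, 0.91, 0.90 and 0.88) and Foxa1 (Tbc1d30, Ak4 and Pmel, 0.90, 0.89 and 0.87) had the lowest. With median-ratio scaling other named genes also lost their places: Pmel was in place 69 and Ak4 in place 25 for Foxa1. Pdcd6ip was in place 57 for Sox21, Ampd3 in place 27 for Gata6 and Carhsp1 in place 24 for Foxa2. The nearest genes of Sox21, Gata4, Gata6, Foxa2 and Elf3 kept place 1. A course shared over 15 libraries of different age says nothing of a shared function.

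A list of 26 other endodermal and epithelial transcription factors, of which 23 were tested, was read beside the members. In D1 to W2 against the embryonic group 6 of the 23 rose and none fell, where 10.8% of all genes rose and 30.6% fell, and the median difference was 0.30 log2 against −0.22 for all genes. Bhlha15, a factor of secretory cells, rose by 2.003 log2 (SE 0.49, adjusted p 0.0035) and Klf4, a factor of differentiating epithelium and the relative of Klf5, rose by 1.38 log2 (SE 0.40, adjusted p 0.0097). In W3 to W8 against D1 to W2 Pdx1, a factor of antrum, duodenum and pancreas, was the 1 gene of 23 that rose (2.57% of all genes, 0.89 log2, SE 0.22, adjusted p 0.0052). Sox17 and Hhex, which act in early endoderm and also in blood vessels, were the 2 that fell, by 1.38 and 1.05 log2 (adjusted p 2.23e-04 and 8.21e-04), where 28.9% of all genes fell, and the median of the list was −0.16 log2 against −0.42 for all genes. Along the embryonic days 13 of 23 rose, against 14.3% of all genes, led by Ehf (0.72 log2 per day, SE 0.08, adjusted p 7.50e-04), an ETS factor related to Elf3, and Grhl1 (0.58 log2 per day, SE 0.09, adjusted p 0.0017), a factor of stratified epithelium. Cdx2, the intestinal homeobox factor, was the 1 that fell (−0.22 log2 per day, SE 0.03, adjusted p 8.97e-04), from 1.26 FPKM at E12.5 to a listed value of 0 at E18.5. The call of Klf4 was lost without any 1 of 12 libraries (1.17 to 1.57 log2), that of Bhlha15 without W1, and that of Pdx1 without D5, W3, W6 or W8 (0.73 to 1.01 log2).

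Ehf had another course than Elf3 after birth: it read 0.608 FPKM at E12.5, 24.7 FPKM at E17.5 and 7.84 to 11.9 FPKM from W3 to W8, where Elf3 had its 3 highest values. Klf4 read 13.9 FPKM at E12.5, 68.5 to 119 FPKM in D1 to W2 and 119 to 179 FPKM in W3 to W8, where Klf5 was at 23.7 to 33.8 FPKM. Klf5 stood above Klf4 in every embryonic library (77.3 against 73.8 FPKM at E18.5). It stood below Klf4 in every library after birth (75.8 against 109 FPKM at D1). Elf3 stood above Ehf in all 15 libraries. These are values side by side, without a test of the difference.

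**Figure D5:**
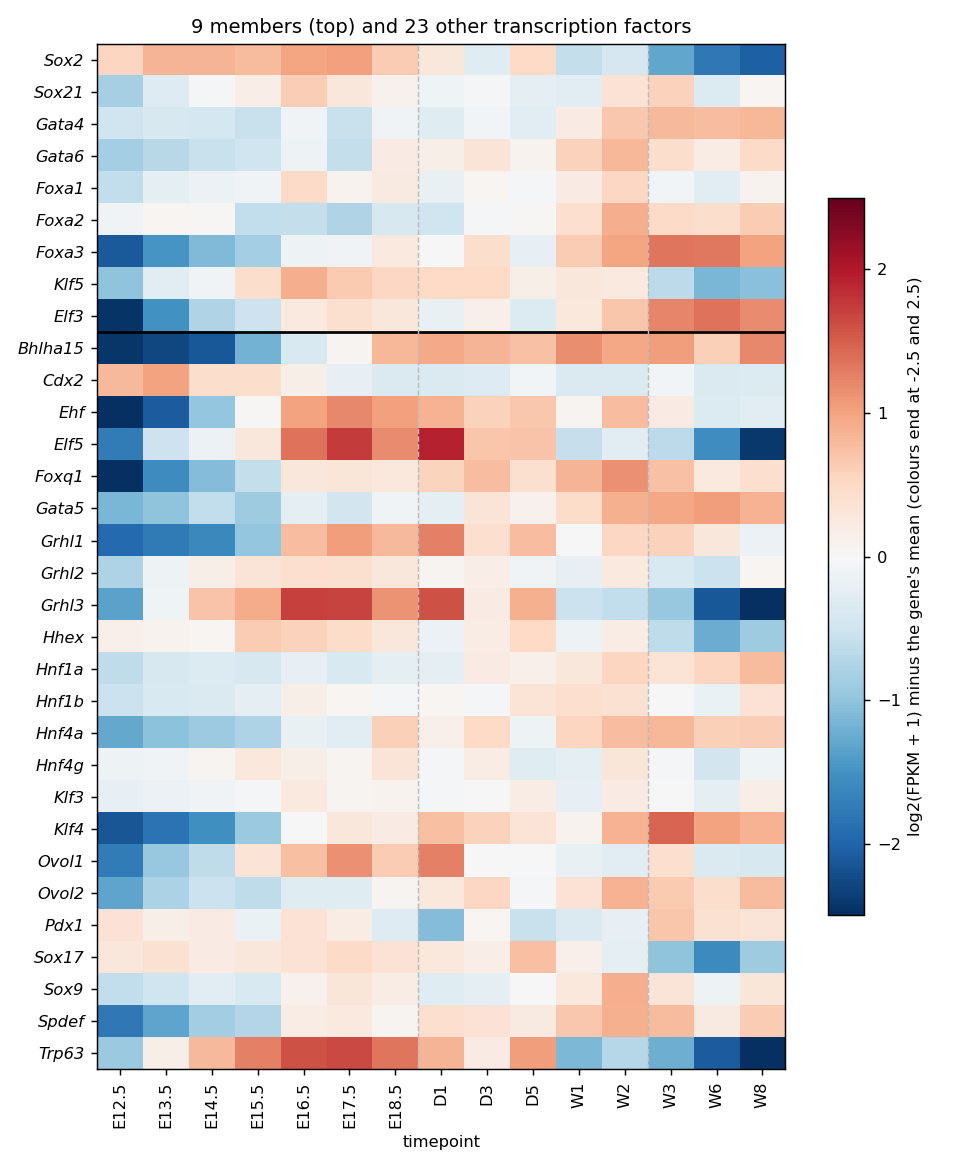
Log2(FPKM + 1) minus the gene's mean over the 15 timepoints (colour, blue low and red high, ends at −2.5 and 2.5) for the 9 members above the black line and the 23 other tested transcription factors below it, with timepoints as columns. Sox2 is red before birth and blue from W3 on, Foxa3, Elf3 and Klf4 go from blue to red, and Klf5 is blue at both ends.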

How the data were processed

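RNA of whole mouse stomach was measured in 15 samples, 1 per timepoint, assigned to the 3 age groups by the age in the labels. The values the authors deposited are FPKM for each gene entry, beside a confidence interval. Their processing notes name Bowtie 0.12.2, FastQC and GRCm38.p2, while the study's methods name HISAT2, StringTie and a GENCODE annotation and call the tissue liver where the labels name stomach. The files have the layout of Cufflinks. No read counts were used, and relative depth read from the lowest values ranged from 0.702 to 1.17 times that of E12.5.

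Entries were added up by symbol (46966 entries, 44788 symbols). The 16902 genes that reached 1 FPKM in any library were fitted as log2(FPKM + 1) with limma 3.58.1 in R 4.3.3, with an F test over the 3 groups, contrasts between successive groups and a slope over the 7 embryonic days, Benjamini-Hochberg adjustment over all genes and a threshold of 0.01. In some fits genes with a variance of 0 were offset by limma. The script was tested on simulated data. As nothing says that timepoints are replicate animals of 1 age, p-values measure the spread between timepoints. Positions start from 0 in the files and are given counted from 1. Promoters and motif counts come from RefSeq (GRCm38.p6). For 7 of the 8 promoters of members, bases after the start were found in a GENCODE transcript of the gene. The exception was the printed promoter of Sox2. Figures and summaries were made with Matplotlib 3.10.9, pandas 2.3.3 and NumPy 2.4.6 in Python 3.11.15.

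The members and lists were chosen with earlier results of these data known. Named were all 9 members, the 2 largest called differences in each direction among 26 other transcription factors per comparison, and the 3 genes with the highest r with each member. Alternatives changed the pseudocount, the FPKM limit, the scaling, the choice of entry, the prior variance and the age groups, and left out each library. Epithelial scaling without Cldn7, the fit without D1 and W8 and 2 ratios were chosen after seeing the data.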

Additional observations from a re-analysis of the deposited data

How the results depend on the processing

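With 1 library per age the spread between animals is unknown, and the calls depended on scaling. No paired analysis was possible because the labels give ages and no replicate numbers shared between groups. Of 27 values (9 members in 3 comparisons), a higher FPKM limit, the first entry of a symbol and a trend in the prior variance changed no call. A pseudocount of 0.1 ended 1 call and dropping the FPKM limit ended 3. Of these settings only the pseudocount alters the members' values, as each member has 1 entry and passes the higher limit. With the others the direction was therefore fixed in advance, and only calls could change.

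The 2 members called in D1 to W2 became 4 with median-ratio scaling, 0 with epithelial scaling and 1 with epithelial scaling without Cldn7. The 3 called in W3 to W8 became 0 with epithelial scaling and 1 each without Cldn7 in that scaling, without an FPKM limit, with W3 moved to the earlier group and without D1 and W8. The 3 called along the embryonic days became 7 with epithelial scaling and 6 without Cldn7. Leaving out 1 library at a time gave 4 to 6 members across the 3 groups, with 4 when D3, W1, W3, W6 or W8 was left out. It gave 2 to 3 in D1 to W2, 1 to 3 in W3 to W8 and 2 to 3 along the embryonic days.

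Over all genes, those that differed across the groups became 3053 with epithelial scaling and 5451 without Cldn7. Those higher and lower in D1 to W2 became 2875 and 2535 with median-ratio scaling, 690 and 158 with epithelial scaling and 481 and 305 without Cldn7. Those in W3 to W8 became 2112 and 1305 (median-ratio), 1376 and 896 (quantile), 119 and 75 (epithelial), 63 and 67 (without Cldn7), 132 and 2436 (W3 moved) and 191 and 1917 (without D1 and W8), and 693 were higher with the protein phases of the study. Along the embryonic days 664 were higher and 11796 lower with epithelial scaling, and 621 and 12486 without Cldn7. Leaving out 1 library gave 10054 to 11969 genes across the groups, 1284 to 2253 higher and 3724 to 6054 lower in D1 to W2, 172 to 578 higher and 1375 to 5672 lower in W3 to W8 (lowest without W6), and 1550 to 2173 higher and 2633 to 3718 lower along the embryonic days.

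Directions that turned, in log2, were for D1 to W2 those of Sox21 (0.21 median-ratio, 0.12 quantile, 0.0905 protein phases, 0.046 with W3 moved), Foxa1 (−0.0656 epithelial, −0.35 without Cldn7), Klf5 (−0.0514 and −0.337), Gata4 (−0.0872 without Cldn7) and Foxa2 (−0.00081 without Cldn7). For W3 to W8 they were those of Sox21 (−0.19 with W3 moved), Gata6 (0.55 median-ratio, 0.25 quantile, 0.33 epithelial, 0.0591 without Cldn7, 0.00756 RNA phases, 0.15 protein phases) and Foxa1 (0.39 median-ratio, 0.0224 quantile, 0.17 epithelial). Along the embryonic days, epithelial scaling with and without Cldn7 turned Sox2 (−0.26 and −0.30), Sox21 (−0.12 and −0.15), Gata4 (−0.24 and −0.28), Gata6 (−0.15 and −0.18), Foxa1 (−0.16 and −0.19) and Klf5 (−0.0271 and −0.0574). The fall of Sox2 in D1 to W2 was −0.64 (adjusted p 0.037, limma) with the protein phases, and the difference of Foxa3 there passed the test with median-ratio and quantile scaling, both phase divisions and W3 moved (1.303 to 1.414), and that of Elf3 with the protein phases (1.17). The cause of these changes was not tested. Leaving out 1 library turned Sox21 (−0.198 to 0.044) and Klf5 (−0.0266 to 0.292) in D1 to W2, Sox21 (−0.0879 to 0.374) and Gata6 (−0.0987 to 0.0874) in W3 to W8, and Sox2 (−0.0084 to 0.0794) along the embryonic days, none of which was called as deposited. The embryonic rise of Klf5 lost its call without any 1 of the first 6 embryonic libraries (slopes of 0.19 to 0.35), and that of Klf4 in D1 to W2 without any 1 of 12 libraries (1.17 to 1.57).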

Other observations

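The overlapping entries 1010001N08Rik and Gata6 did not share their highest library: 1010001N08Rik was highest at W8 (51.2 FPKM) and Gata6 at W2 (44.6 FPKM), where 1010001N08Rik read 44.5 FPKM. Foxa3 stood at 0.0872 times Foxa1 at E12.5, at 0.32 times at E18.5 and at 0.861, 0.982 and 0.608 times at W3, W6 and W8, a ratio chosen after the values were seen. Cldn7, a claudin among the 8 genes of the epithelial scaling, read 110 FPKM at E16.5 and 2.68 FPKM at W8, while Cdh1 read 117 and 149 FPKM. The pancreas markers summed to 29.9 FPKM at D3 and to 3.48 to 13.7 FPKM elsewhere. The 6 small intestine markers summed to 1.79 to 9.39 FPKM before birth, to 14.9 to 76.0 FPKM in D1 to W2 and to 77.7 to 115 FPKM in W3 to W8. At W6 Apoa4 (69.8 FPKM) and Fabp2 (43.7 FPKM) held nearly all of the sum, and Alpi read 1.18 FPKM. Cdx2 read 1.26 FPKM at E12.5 and 0 at W6, and Cdx1 and Sis reached at most 0.401 and 0.0195 FPKM.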
